A study of Mus musculus with 6 samples.

Results

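The mitochondrial ribosomal protein genes described here are the 81 genes whose symbol is Mrpl or Mrps followed by a number and which had at least 1 count, out of 23871 genes with a count and 37991 entries in all. They were measured in mouse group 2 innate lymphoid cells (ILC2), lymphocytes without antigen receptors that make type 2 cytokines, sorted as lineage-negative Thy1+ ST2+ cells. All cells, in every group, came from mice homozygous for an Id1 transgene, which is driven by the proximal promoter of lck; the line was made on FVB/N and then crossed to C57BL/J for 10 generations or more. Messenger RNA was sequenced in 2 libraries of each of 3 groups, each library from about 300000 cells. One group held ILC2 of the mesenteric lymph nodes (MLN) kept for 1 week in medium with the cytokines IL-33, IL-25 and IL-7, each at 10 ng/ml, another held ILC2 taken directly from the thymus, and the last held ILC2 taken directly from MLN, called fresh MLN. There was no group without the transgene, so its effect was not measured. Neither the animals' age nor whether libraries of the same group came from separate animals or cultures is stated. The p-values below therefore measure only the spread between these libraries.

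Mitochondria carry their own ribosome, which translates the few proteins encoded by the mitochondrial genome, all of them core subunits of the respiratory chain and of ATP synthase. Its ribosomal RNAs come from the mitochondrial genome, while all its proteins are encoded in the nucleus, made in the cytosol and imported. Some of these proteins descend from bacterial ribosomal proteins, and others were added in the mitochondrial lineage. In lymphocytes that leave rest, mitochondria grow along with the cell, and mitochondrial translation supplies the respiratory chain.

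Of the 81 genes, 77 are protein-coding and 4 are processed pseudogenes (Mrpl23-ps1, Mrpl48-ps, Mrps36-ps1 and Mrps36-ps2). By the place of the protein in the ribosome, 50 genes encode the large subunit and 26 the small subunit. Within the large subunit, 29 proteins have a bacterial counterpart and 21 are particular to mitochondria. Within the small subunit, these numbers are 16 and 10. A symbol is not always a guide to the subunit, since Mrps30 and Mrps18a are named for the small subunit and sit in the large one. Mrps36 bears the symbol but its protein is a part of the oxoglutarate dehydrogenase complex, so it was kept apart from both subunits. The genes lie on 17 chromosomes, with at most 11 of them on any one, chromosome 11.

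Library totals ran from 35280692 to 40578264 counts, and every one of the 81 genes passed the filter on low counts. The lowest count of any of them in any library was 11, for Mrps36-ps2 in 1 fresh MLN library, and the median over genes and libraries was 886.5 counts. Levels are given as counts per 1000000 (CPM) on library totals scaled by the TMM method. The ILC2 regulator Gata3 stood at 1030 and 1060 CPM in cultured MLN, 648 and 673 CPM in thymus and 622 and 599 CPM in fresh MLN. The ST2 gene Il1rl1 stood at 2290 and 2340, 1460 and 1440, and 1880 and 1820 CPM in the same order of groups. Both belong to a list of 10 ILC2 markers, which did not move as one. Against fresh MLN, 2 of the 10 were higher and 5 lower in thymus. In culture 6 were higher and 4 lower, and all 4 of these fell past 2-fold. Markers of other cell types differed between the groups too. The 7 T cell markers summed to 54.79 and 63.24 CPM in cultured MLN, 102.3 and 102.9 CPM in thymus and 114.5 and 120.0 CPM in fresh MLN, most of it Cd3e. Against fresh MLN, 3 of the 7 were higher in thymus (Cd3d, Cd4 and Cd5, by 0.92, 2.58 and 0.77 on the log2 scale) and 1 lower (Cd3e), while 5 were lower in culture. Cd8a and Cd8b1 stayed under 0.7 CPM. The 5 B cell markers summed to 8.267 and 7.692 CPM in cultured MLN, 1.208 and 1.011 CPM in thymus and 1.85 and 2.151 CPM in fresh MLN; Ms4a1 and Pax5 were under 0.25 CPM in every library, and Cd22 made up most of the sum in culture, at 7.84 and 7.03 CPM. All 5 markers of NK cells and ILC1 had lower levels in thymus, against fresh MLN, at a median of -2.29, with sums of 8.527 and 8.962 CPM in thymus and 35.08 and 33.38 CPM in fresh MLN; in culture 4 were lower and Prf1 was higher. Of 5 dendritic cell markers, 4 were lower and Xcr1 was higher in thymus and in culture, and sums ran from 11.44 to 44.35 CPM. Macrophage and monocyte markers summed to at most 23.85 CPM in any library, with 3 of the 6 tested lower in thymus and 4 lower and 2 higher in culture. Mast cell and basophil markers summed to 757.5 and 1054 CPM in cultured MLN, 815.5 and 831.3 CPM in thymus and 339.6 and 383.1 CPM in fresh MLN. Most of that was Mcpt8 and Kit in culture and Kit in thymus and fresh MLN, while Fcer1a and Ms4a2 were near 0 in every library. The groups also differed in markers of dividing cells: the 10 genes of that list summed to 1606 and 1743 CPM in cultured MLN, 1980 and 1827 CPM in thymus and 219.6 and 190.3 CPM in fresh MLN. All 10 were higher both in thymus and in cultured MLN than in fresh MLN, and the part of these markers in the results below was not tested.

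Promoter windows of RefSeq (GRCm38.p6), 300 bases around the annotated start of a gene, were found for 68 of the 77 protein-coding genes. They held a median of 21 CpG dinucleotides, against 21 in the windows of all genes tested and 8 in those of all 27025 genes with a window. CCGGAAG, bound by ETS factors, stood on either strand in 36.8% of the ribosomal protein windows, against 19.4% of genes tested and 9.93% of all windows. The letters GCGCA, any base, then GCGC, a site of the nuclear respiratory factor NRF1, stood in 19.1%, against 11.0% and 5.19%, and ATGGCGG, the core of a YY1 site, in 19.1%, against 8.88% and 4.69%. By contrast, the GC box GGGCGG was in 50.0% of them, against 66.1% of genes tested and 38.2% of all windows. The E-box CACGTG, read by MYC, was in 7.35% of them, against 11.4% and 8.09%. CAGGTG and CAGCTG, the E-boxes of E proteins, which Id1 inhibits, were in 14.7% and 16.2% of them, against 21.6% and 18.1% of genes tested. None of these motifs holds the letters of another, and a match says only that the letters are there. Some windows are printed for genes whose levels are described below: Mrpl24 and Mrps5, among the genes that fell most in culture, Mrpl17, the gene that rose most, Mrpl52, which moved in opposite directions, and Mrps12, which shares its upstream region with a divergent gene. Capitals mark matches to the ETS, NRF1, YY1 and CACGTG letters on either strand.
Mrpl24 (chr3:87919294-87919593, plus strand): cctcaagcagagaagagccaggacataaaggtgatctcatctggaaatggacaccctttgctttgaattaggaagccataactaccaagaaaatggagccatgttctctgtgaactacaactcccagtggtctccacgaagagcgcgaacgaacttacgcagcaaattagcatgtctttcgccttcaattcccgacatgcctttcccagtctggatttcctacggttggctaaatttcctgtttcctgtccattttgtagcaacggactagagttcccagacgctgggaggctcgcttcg
Mrps5 (chr2:127587176-127587475, plus strand): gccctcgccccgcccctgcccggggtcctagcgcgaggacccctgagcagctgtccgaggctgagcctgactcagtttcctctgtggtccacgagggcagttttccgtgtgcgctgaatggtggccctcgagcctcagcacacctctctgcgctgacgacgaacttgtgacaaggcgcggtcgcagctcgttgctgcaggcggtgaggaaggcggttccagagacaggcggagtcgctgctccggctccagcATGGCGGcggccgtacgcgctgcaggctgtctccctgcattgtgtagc
Mrpl17 (chr7:105811038-105811337, minus strand): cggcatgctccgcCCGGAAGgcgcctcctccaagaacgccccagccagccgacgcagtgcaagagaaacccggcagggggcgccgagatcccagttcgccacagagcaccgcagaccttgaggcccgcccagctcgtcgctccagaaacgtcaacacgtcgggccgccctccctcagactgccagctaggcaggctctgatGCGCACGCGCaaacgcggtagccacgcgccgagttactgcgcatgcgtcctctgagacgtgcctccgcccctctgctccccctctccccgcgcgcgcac
Mrpl52 (chr14:54426659-54426958, plus strand): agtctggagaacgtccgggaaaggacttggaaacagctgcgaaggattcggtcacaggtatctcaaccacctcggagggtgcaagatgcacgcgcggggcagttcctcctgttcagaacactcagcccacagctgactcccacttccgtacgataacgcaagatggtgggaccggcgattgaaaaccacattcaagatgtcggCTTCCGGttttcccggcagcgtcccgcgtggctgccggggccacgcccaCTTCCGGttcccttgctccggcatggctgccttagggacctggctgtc
Mrps12 (chr7:28741772-28742071, minus strand): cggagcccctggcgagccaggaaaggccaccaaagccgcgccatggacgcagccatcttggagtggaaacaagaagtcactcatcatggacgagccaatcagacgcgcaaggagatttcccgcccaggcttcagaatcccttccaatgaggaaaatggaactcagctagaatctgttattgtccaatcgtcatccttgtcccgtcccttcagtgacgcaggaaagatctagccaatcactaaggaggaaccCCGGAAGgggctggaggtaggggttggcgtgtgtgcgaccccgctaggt
The Mrpl24 window held no match to these 4 motifs, that of Mrps5 1 YY1 match, that of Mrpl17 an ETS and an NRF1 match, that of Mrpl52 2 ETS matches and that of Mrps12 1 ETS match. Across the genes, the YY1 letters were in 1 of 35 windows of genes higher in cultured than in fresh MLN, 5 of 14 of genes that were lower and 7 of 19 of genes not called. The ETS letters were in 15, 2 and 8 of these windows. These splits were looked at after the calls were known and were not tested.

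Levels of single genes were compared per kilobase of the longest principal transcript annotated for each gene. The 77 protein-coding genes had a median of 14.7 CPM per kilobase in cultured MLN, 14.4 in thymus and 13.6 in fresh MLN. All protein-coding genes tested had medians of 9.11, 9.58 and 9.22 CPM per kilobase in the same groups. The gene with the highest level per kilobase was Mrpl52 in cultured MLN, at 87.4 CPM per kilobase, and Mrpl24 in thymus and in fresh MLN, at 81.9 and 96.2. Mrps21, a small protein of the small subunit, came second in cultured MLN at 86.2 and second in thymus at 59.4 CPM per kilobase. At the low end stood Mrpl23 in cultured MLN, at 1.49 CPM per kilobase, and Mrpl17 in thymus and fresh MLN, at 2.50 and 2.01. Mrpl17 averaged 18.3 CPM in thymus and 14.7 CPM in fresh MLN, against medians of 24.4 and 21.5 CPM over the 77 genes. The last place of Mrpl17 thus rests on its annotated length of 7300 bases. Mrpl48, Mrpl53 and Mrps25 were among the 5 lowest in all 3 groups, with lengths of 4285, 695 and 6073 bases. The low place of Mrpl53 thus does not rest on its length, but it shares 695 exonic bases with Gm42688 on the same strand. On the other strand, Mrpl48 shares 708 exonic bases with Rab6a and Mrps25 shares 4590 with Nr2c2. The counts of all 3 genes are therefore uncertain.

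Summed over the 81 genes, the level was 2174 and 2288 CPM in cultured MLN, 2094 and 2220 CPM in thymus and 1960 and 1934 CPM in fresh MLN. The sums of cultured MLN and thymus libraries overlapped, and both lay above those of fresh MLN. In such bulk samples, a change in the RNA per cell and a change in the share of cells of a kind cannot be told apart. As a share of all counts, without TMM factors, the order was another one: 0.195% and 0.204% in cultured MLN, 0.225% and 0.237% in thymus, and 0.205% and 0.202% in fresh MLN. The sum of the large subunit genes was 2.13 and 2.11 times that of the small subunit genes in cultured MLN, 2.13 and 2.15 times in thymus and 2.18 and 2.19 times in fresh MLN. This ratio needs no scaling, and it differed little between groups. Single genes moved more in culture, where 4 large subunit genes were called higher and 2 lower past 2-fold against fresh MLN, and 2 small subunit genes higher. In thymus against fresh MLN no gene of either subunit reached 2-fold.

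**Figure D1:**
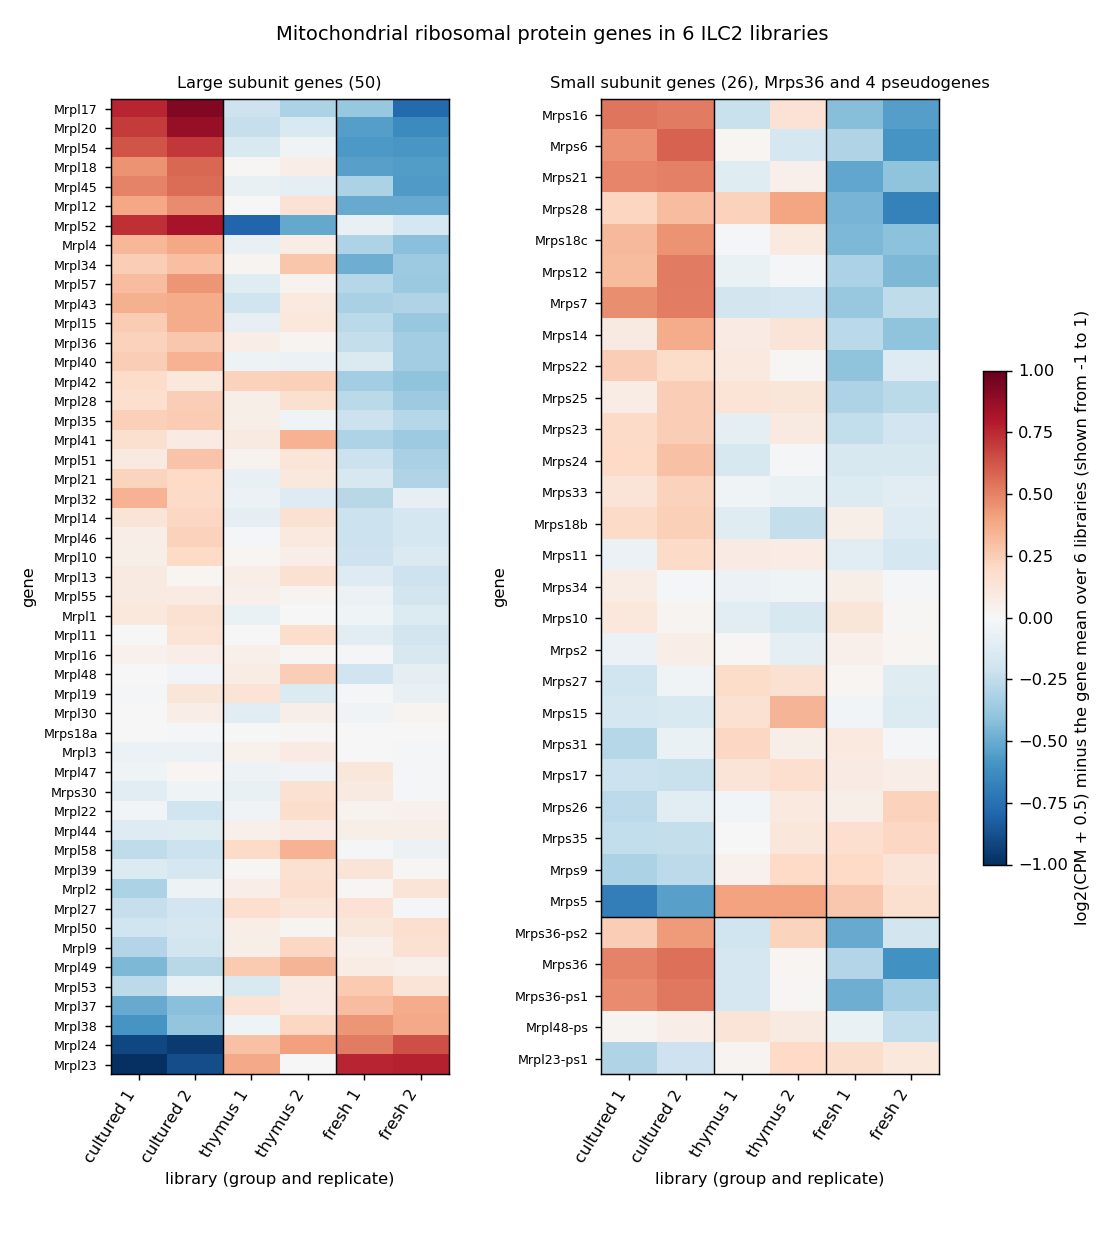
Level of each of the 81 genes (rows) in each of the 6 libraries (columns), as log2(CPM + 0.5) minus the mean of the gene over the 6 libraries; red is above and blue below that mean, and genes are ordered within each class by their change in culture. Rows at the top are high in both cultured MLN libraries and low in fresh MLN, rows at the bottom, Mrpl24 and Mrpl23 last among the large subunit genes, run the other way, and Mrps18a is near white throughout.

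Between thymus and fresh MLN ILC2, which compares cells taken directly from both organs, mitochondrial ribosomal protein genes moved little and mostly upward. Of the 81 genes, 33 (40.7%) were higher in thymus, where 25.3% of all 16231 genes tested were. Only 5 (6.17%) were lower in thymus, against 22.0% of all genes, so that 46.9% were called in either direction, against 47.3%. A gene is called higher or lower where its adjusted p is under 0.05 (edgeR quasi-likelihood test, Benjamini-Hochberg over all genes tested), and the other 43 were not called. The median log2 fold change was 0.22, against -0.00 over all genes tested, and the extremes were -0.64 and 0.94. None reached a 2-fold change, which 9.14% of all genes did upward and 5.6% downward. In 52 of the 81 genes both thymus libraries lay above both fresh MLN libraries, as in 37.2% of all genes, and in 12 both lay below, as in 35.6%; these are 64 of the 81 genes, against 72.8% of all. Without fresh MLN replicate 2, a fit with fewer libraries in that group, fewer of the 81 genes were called. The share of all genes called in that fit was not compared, so this fall is not read as particular to these genes.

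Among large subunit genes with a bacterial counterpart, 12 of 29 were higher in thymus (41.4%) and 2 lower (6.9%). The shares over all genes tested were 25.3% and 22.0%. Mrpl12, the L7/L12 protein of the stalk that recruits translation factors, was at 40.9 and 45.3 CPM in thymus, against 28.7 and 28.7 CPM in fresh MLN (log2 fold change 0.58 ± 0.08 SE, adjusted p = 5.06e-05). Its stalk partner Mrpl10 was at 52.1 and 53.9 CPM in thymus, against 44.5 and 46.5 CPM in fresh MLN (0.22, adjusted p = 0.0268), a call that was lost without thymus replicate 2, without either fresh MLN library and with DESeq2. Mrpl11, at the base of the stalk, had 20.2 and 22.9 CPM in thymus and 18.6 and 17.7 CPM in fresh MLN and just missed the threshold (adjusted p = 0.0511). Mrpl18, whose bacterial relative binds 5S RNA, was at 43.2 and 44.8 CPM in thymus, against 29.2 and 28.9 CPM in fresh MLN (0.60 ± 0.08). Mrpl34, a small protein of the large subunit, rose by the same factor to 19.6 and 23.3 CPM in thymus, against 13.5 and 14.8 CPM in fresh MLN. Mrpl36, a very small zinc-binding protein, was also higher, at 28.2 and 27.4 CPM in thymus and 22.7 and 21.0 CPM in fresh MLN (0.35).

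Among the 21 large subunit proteins particular to mitochondria, 10 were higher in thymus (47.6%) and 3 lower (14.3%). Over all genes tested these shares were 25.3% and 22.0%. Mrpl42 was at 22.8 and 22.9 CPM in thymus, against 15.1 and 14.5 CPM in fresh MLN (0.62 ± 0.09, adjusted p = 7.64e-05), and Mrpl41 at 18.1 and 21.8 CPM in thymus, against 13.6 and 13.1 CPM in fresh MLN (0.58). Mrpl58, a peptidyl-tRNA hydrolase built into the ribosome, was at 29.6 and 33.0 CPM in thymus, against 25.6 and 24.7 CPM in fresh MLN (0.32); it was not called without thymus replicate 2 or without fresh MLN replicate 2. The lower genes included Mrpl52, with 12.0 and 14.7 CPM in thymus and 20.0 and 18.6 CPM in fresh MLN (-0.53 ± 0.11, adjusted p = 0.00112). Mrpl38, of the central protuberance, was at 25.1 and 29.8 CPM in thymus and 35.2 and 33.7 CPM in fresh MLN (-0.33). Mrpl37 was at 59.8 and 57.9 CPM in thymus and 67.0 and 70.0 CPM in fresh MLN (-0.22), and Mrpl24, of the first class, at 105 and 114 CPM in thymus and 123 and 134 CPM in fresh MLN (-0.23). Mrpl23, another large subunit gene with a bacterial counterpart, was at 3.35 and 2.45 CPM in thymus and 4.52 and 4.54 CPM in fresh MLN (-0.64). These are the 5 genes called lower, and of them only Mrpl52 stayed past the threshold without any single library.

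Of the 26 small subunit genes, 11 (42.3%) were higher in thymus, against 25.3% of all genes tested, and 0 were lower, against 22.0%. At an unadjusted p under 0.05 of the edgeR test the number lower was 1, and DESeq2 called 0 lower. Mrps28 showed the largest rise of all 81 genes, with 10.1 and 11.4 CPM in thymus, against 6.04 and 5.15 CPM in fresh MLN (0.94 ± 0.14, adjusted p = 0.000108). Mrps18c, 1 of 3 relatives of bacterial S18, was at 19.2 and 20.7 CPM in thymus, against 14.0 and 14.4 CPM in fresh MLN (0.49). Its relatives did not follow: Mrps18b had 12.4 and 11.4 CPM in thymus and 14.1 and 12.3 CPM in fresh MLN (-0.15, adjusted p = 0.296), and Mrps18a had 27.5 and 27.6 CPM in thymus and 27.4 and 27.4 CPM in fresh MLN. Mrps16, loss of which causes a mitochondrial disease in humans, was at 27.2 and 35.2 CPM in thymus, against 23.5 and 21.6 CPM in fresh MLN (0.47). Mrps14 (31.2 and 32.2 CPM in thymus, 24.3 and 22.2 CPM in fresh MLN) and Mrps21 (27.2 and 30.8 CPM, 20.5 and 22.3 CPM) rose by similar amounts, 0.45 and 0.44. Mrps12, of the decoding centre, was at 23.5 and 24.4 CPM in thymus, against 19.7 and 17.9 CPM in fresh MLN (0.35), and was not called without fresh MLN replicate 2. By class, 8 of 16 small subunit genes with a bacterial counterpart were called (50.0%), and 3 of 10 particular to mitochondria (30.0%). Among all genes tested, 47.3% were called in either direction.

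**Figure D2:**
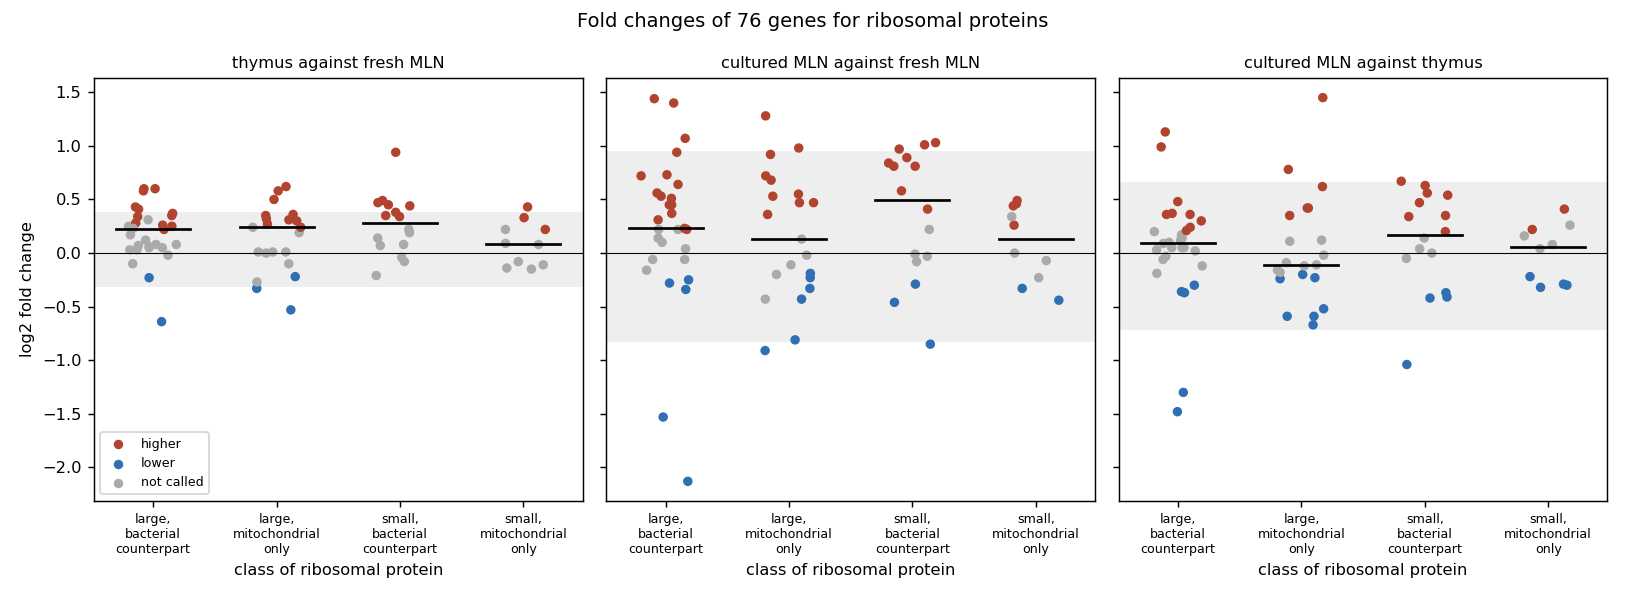
Log2 fold change of the 76 genes for proteins of the ribosome in each comparison (panels), by class of protein; a point is a gene, red if called higher, blue if called lower and grey if not called, the bar is the class median, and the grey band runs from the first to the third quartile of all genes tested. Thymus against fresh MLN spans -0.64 to 0.94, while cultured against fresh MLN spans -2.13 to 1.44.

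Between cultured and fresh MLN ILC2 the fold changes were wider and ran in both directions. Of the 81 genes, 42 (51.9%) were higher in cultured than in fresh MLN, against 39.4% of all genes tested, and 17 (21.0%) were lower, against 38.1%; in either direction 72.8% were called, against 77.6%. The median log2 fold change was 0.26, against -0.01 over all genes tested. Past a 2-fold change, 9 were higher and 2 lower, fewer in proportion than the 23.3% and 20.2% of all genes. The 9 were 4 large and 2 small subunit genes, Mrps36, which is outside the ribosome, and 2 pseudogenes. In 50 genes both cultured libraries lay above both fresh MLN libraries, as in 44.6% of all genes, and in 25 both lay below, as in 44.6%; these are 75 of the 81 genes, against 89.2% of all. The size of this balance, though not its direction, depends on the scaling. With library totals alone, 35 were higher and 30 lower with a median of 0.03, while the median over all genes moved to -0.23. A change of scaling shifts all genes alike, so it leaves the order of the genes as it was. Large and small subunits gave like counts, with 26 of 50 higher and 11 lower for the large and 13 of 26 higher and 5 lower for the small.

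The largest rises were in large subunit proteins with a bacterial counterpart, of which 16 of 29 were higher (55.2%) and 5 lower (17.2%). The shares over all genes tested were 39.4% and 38.1%. Mrpl17, which lies near the exit of the nascent chain in bacterial ribosomes, was at 37.6 and 42.2 CPM in cultured MLN, against 16.8 and 12.6 CPM in fresh MLN, a 2.71-fold rise (log2 fold change 1.44 ± 0.12, adjusted p = 1.38e-07). Mrpl20, whose bacterial relative is needed early in assembly of the large subunit, was at 57.5 and 64.8 CPM in cultured MLN, against 23.8 and 22.4 CPM in fresh MLN (1.40 ± 0.08). Mrpl18 was at 58.4 and 63.8 CPM in cultured MLN, against 29.2 and 28.9 CPM in fresh MLN (1.07 ± 0.08). Mrpl18 shares exonic bases with Tcp1 on the other strand, and reads of the pair cannot be told apart without the strand setting. Of the stalk, Mrpl12 rose to 53.6 and 56.8 CPM in cultured MLN, against 28.7 and 28.7 CPM in fresh MLN (0.94 ± 0.08), and Mrpl10 to 53.4 and 59.0 CPM, against 44.5 and 46.5 CPM (0.31 ± 0.07); with library totals alone Mrpl10 was at 0.08 and not called (adjusted p = 0.317). Mrpl11 had 20.1 and 22.2 CPM in cultured MLN and 18.6 and 17.7 CPM in fresh MLN (0.22, adjusted p = 0.0537). Mrpl36 rose to 31.7 and 32.6 CPM in cultured MLN, against 22.7 and 21.0 CPM in fresh MLN (0.56).

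The same class held the strongest falls. Mrpl24, which sits beside the exit tunnel, was at 45.4 and 43.9 CPM in cultured MLN, against 123 and 134 CPM in fresh MLN, 2.88-fold lower in culture (-1.53 ± 0.07, adjusted p = 4.31e-10). It was thus the most abundant gene per kilobase in fresh MLN and fell furthest among genes above 5 CPM. Its exons share 594 bases with Rrnad1 on the other strand, so part of its count may belong to that gene. Mrpl23, another protein of the tunnel exit, fell to 0.966 and 1.10 CPM in cultured MLN, against 4.52 and 4.54 CPM in fresh MLN (-2.13 ± 0.23). Its count is uncertain, since its processed copy Mrpl23-ps1 carried more reads, 10.8 and 11.6 CPM in cultured MLN and 15.2 and 14.5 CPM in fresh MLN (-0.40, called lower). Mrpl9 was at 53.4 and 57.6 CPM in cultured MLN, against 68.0 and 73.0 CPM in fresh MLN (-0.34). The tunnel exit did not move as one: Mrpl47, the relative of bacterial L29, had 13.3 and 13.9 CPM in cultured MLN and 14.9 and 13.6 CPM in fresh MLN (-0.06, adjusted p = 0.581), while Mrpl45, a mitochondrial addition that faces the inner membrane there, rose to 40.1 and 41.8 CPM, against 22.6 and 18.9 CPM (0.98 ± 0.09).

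Of the 21 large subunit proteins particular to mitochondria, 10 were higher in culture (47.6%) and 6 lower (28.6%). Over all genes tested these shares were 39.4% and 38.1%. Mrpl54 stood at 31.0 and 32.8 CPM in cultured MLN, against 13.2 and 13.1 CPM in fresh MLN (1.28 ± 0.09, adjusted p = 2.12e-08). Mrpl52 stood at 35.3 and 37.8 CPM in cultured MLN, against 20.0 and 18.6 CPM in fresh MLN (0.92 ± 0.10). Mrpl38 fell to 17.0 and 19.5 CPM, against 35.2 and 33.7 CPM (-0.91 ± 0.10), and Mrpl37 to 37.9 and 40.3 CPM, against 67.0 and 70.0 CPM (-0.81 ± 0.07). Mrpl49 fell to 21.8 and 24.6 CPM in cultured MLN, against 31.5 and 31.0 CPM in fresh MLN (-0.43 ± 0.09). Mrpl44, with an RNase III fold, was at 26.1 and 26.2 CPM in cultured MLN and 29.7 and 29.8 CPM in fresh MLN (-0.19, adjusted p = 0.0400), a call that was lost without any 1 of these 4 libraries, with RLE factors, without a filter and with DESeq2. Mrps30 (27.2 and 28.5 CPM, 31.2 and 29.0 CPM) and Mrpl58 (21.5 and 22.2 CPM, 25.6 and 24.7 CPM) were not called. Mrps18a had 27.2 and 27.0 CPM in cultured MLN and 27.4 and 27.4 CPM in fresh MLN, a log2 fold change of -0.02; with library totals alone it was -0.24 and called lower.

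In the small subunit, 9 of 16 proteins with a bacterial counterpart were higher in culture (56.2%) and 3 lower (18.8%). The shares over all genes tested were 39.4% and 38.1%. Mrps16 was at 46.3 and 45.8 CPM in cultured MLN, against 23.5 and 21.6 CPM in fresh MLN (1.03 ± 0.11, adjusted p = 1.33e-06). Mrps6, a protein of the platform, was at 15.0 and 16.5 CPM in cultured MLN, against 8.66 and 6.98 CPM in fresh MLN (1.01 ± 0.13); it shares exonic bases with Slc5a3 on the same strand. Mrps21 rose to 41.8 and 42.3 CPM, against 20.5 and 22.3 CPM (0.97), and Mrps28 to 10.0 and 10.7 CPM, against 6.04 and 5.15 CPM (0.89). In the decoding region, Mrps12 rose to 30.8 and 35.4 CPM, against 19.7 and 17.9 CPM (0.81), while Mrps5, which lines the path of the incoming messenger RNA, fell to 18.9 and 21.0 CPM, against 37.4 and 34.6 CPM (-0.85 ± 0.08, adjusted p = 7.67e-07). The 3 relatives of S18 again differed, with Mrps18c at 24.3 and 26.5 CPM in cultured MLN, against 14.0 and 14.4 CPM in fresh MLN (0.84), and Mrps18b at 15.5 and 16.0 CPM, against 14.1 and 12.3 CPM (0.26, adjusted p = 0.0450). The Mrps18b call was lost with DESeq2, with library totals alone, with either other filter, without either cultured MLN library and without fresh MLN replicate 2. Mrps7 rose to 57.5 and 59.1 CPM, against 31.8 and 34.6 CPM (0.81), whereas Mrps9 fell to 34.7 and 36.0 CPM, against 49.8 and 47.3 CPM (-0.46), though both sit in the head of the subunit. Mrps17 fell to 33.4 and 33.2 CPM, against 41.1 and 40.6 CPM (-0.29).

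Of the 10 small subunit proteins particular to mitochondria, 4 were higher in culture (40.0%, against 39.4% of all genes tested) and 2 lower (20.0%, against 38.1%). Mrps25 was at 20.5 and 23.2 CPM in cultured MLN, against 15.6 and 16.1 CPM in fresh MLN (0.46); it shares 4590 exonic bases with Nr2c2 on the other strand. Mrps35 fell to 19.4 and 19.5 CPM, against 26.0 and 26.8 CPM (-0.44), and Mrps26 to 29.7 and 33.2 CPM, against 37.1 and 42.0 CPM (-0.33). The Mrps26 call was lost without cultured MLN replicate 1 and without fresh MLN replicate 2. Mrps27, a protein with pentatricopeptide repeats, had 13.9 and 15.7 CPM in cultured MLN and 16.3 and 14.7 CPM in fresh MLN and was not called. Mrps36, outside the ribosome, was at 3.92 and 4.11 CPM in cultured MLN, against 2.06 and 1.57 CPM in fresh MLN (1.15 ± 0.21, adjusted p = 0.000266). Its copy Mrps36-ps1 moved alike, with 5.13 and 5.35 CPM, against 2.39 and 2.71 CPM (1.04), and reads of the near-identical sequences cannot be told apart with certainty.

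**Figure D3:**
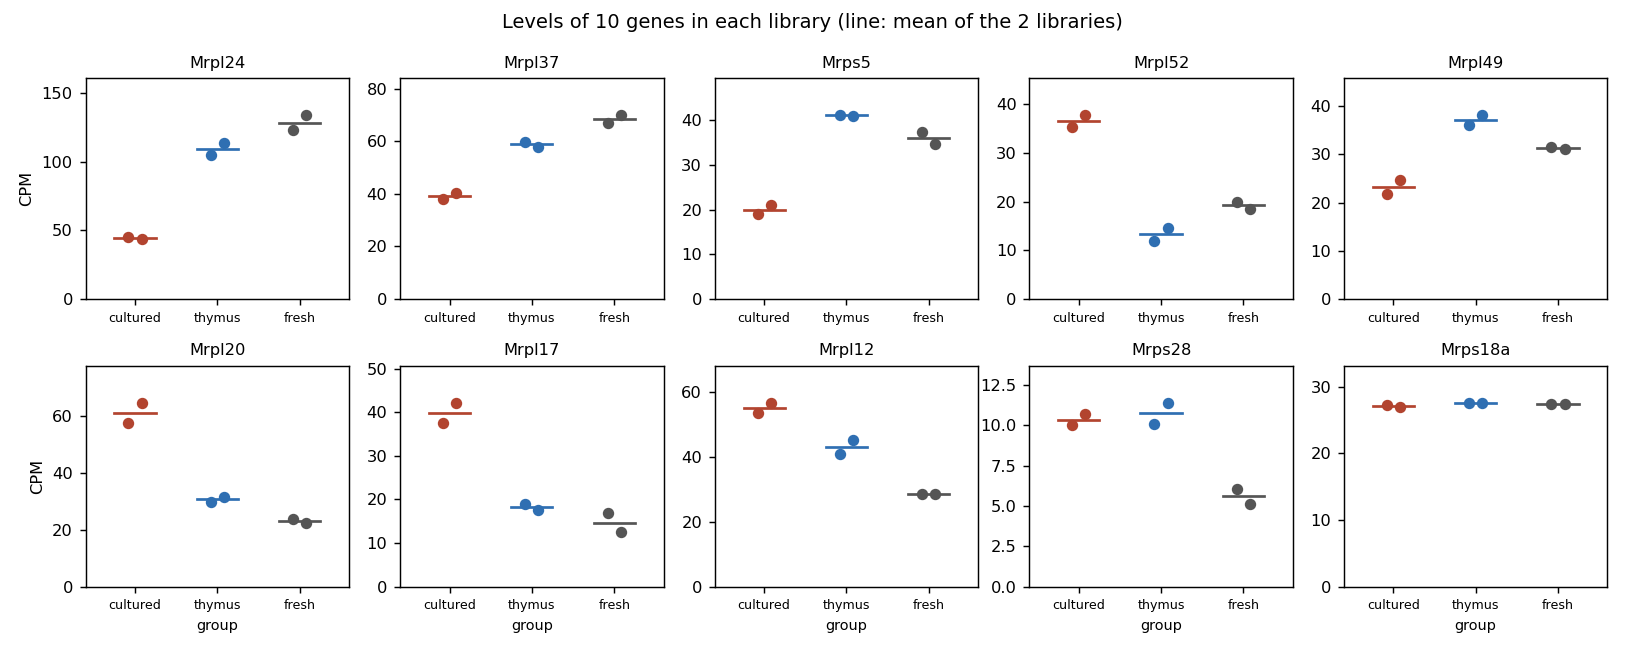
CPM of 10 genes in each library (points) with the mean of the 2 libraries of a group (line), for cultured MLN, thymus and fresh MLN from left to right; each panel has its own linear axis from 0. Mrpl24 falls to 45.4 and 43.9 CPM in cultured MLN, Mrpl52 has its lowest levels in thymus, Mrpl49 its highest in thymus, and Mrps18a lies between 27.0 and 27.6 CPM in all 6 libraries.

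Set directly against thymus, cultured MLN had 27 of the 81 genes higher (33.3%, against 34.8% of all genes tested) and 21 lower (25.9%, against 37.8%); in either direction 59.3% were called, against 72.7%. The median was 0.05, against -0.06 over all genes. With library totals alone the balance turned round, to 10 higher and 36 lower with a median of -0.20, while the median over all genes moved to -0.32. In 35 genes both cultured libraries lay above both thymus libraries, as in 40.8% of all genes, and in 26 both lay below, as in 45.1%; these are 61 of the 81 genes, against 86.0% of all. This comparison holds organ and culture together, which cannot be told apart here.

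Mrpl52 and Mrpl49 were called in opposite directions in the comparisons of thymus and of cultured MLN with fresh MLN, which share the fresh MLN libraries. Against thymus, Mrpl52 was 2.74-fold higher in cultured MLN (1.45 ± 0.10, adjusted p = 3.3e-08), with 35.3 and 37.8 CPM in cultured MLN and 12.0 and 14.7 CPM in thymus. Mrpl49 was lower in cultured MLN, with 21.8 and 24.6 CPM, than in thymus, with 36.0 and 38.1 CPM (-0.67 ± 0.08, adjusted p = 9.36e-06). The fresh MLN libraries lay between, at 31.5 and 31.0 CPM for Mrpl49, but its call in thymus against fresh MLN (0.24, adjusted p = 0.0275) was lost without thymus replicate 2, without either fresh MLN library and with DESeq2.

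Apart from these, the largest differences between cultured MLN and thymus were in genes already described. Mrpl17 was at 37.6 and 42.2 CPM in cultured MLN, against 19.0 and 17.6 CPM in thymus (1.13 ± 0.12), and Mrpl20 at 57.5 and 64.8 CPM, against 29.9 and 31.6 CPM (0.99 ± 0.08). Mrpl24 was at 45.4 and 43.9 CPM in cultured MLN, against 105 and 114 CPM in thymus (-1.30 ± 0.07, adjusted p = 3.04e-09). Mrps5 was at 18.9 and 21.0 CPM in cultured MLN, against 41.1 and 41.0 CPM in thymus (-1.04 ± 0.08), and of the small subunit it fell furthest. Mrps7, at 57.5 and 59.1 CPM in cultured MLN, against 36.5 and 36.9 CPM in thymus, rose most in that subunit (0.67). Mrps15 had 39.6 and 40.4 CPM in cultured MLN and 50.0 and 56.8 CPM in thymus (-0.42), and Mrpl58 had 21.5 and 22.2 CPM in cultured MLN and 29.6 and 33.0 CPM in thymus (-0.52). Mrpl12 remained higher in cultured MLN (53.6 and 56.8 CPM) than in thymus (40.9 and 45.3 CPM), by 0.36, a call lost with library totals alone. Mrps28, raised in both groups against fresh MLN, had 10.0 and 10.7 CPM in cultured MLN and 10.1 and 11.4 CPM in thymus (-0.05, adjusted p = 0.767).

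The ribosomal proteins can be set beside the other parts of mitochondrial gene expression. Both mitochondrial ribosomal RNAs were higher in culture than in fresh MLN: mt-Rnr1, of the small subunit, was at 442 and 391 CPM in cultured MLN, against 128 and 173 CPM in fresh MLN (1.47 ± 0.14), and mt-Rnr2, of the large subunit, at 801 and 804 CPM, against 153 and 215 CPM (2.13 ± 0.14). They were higher in thymus too, with 292 and 377 CPM for mt-Rnr1 (1.15) and 384 and 490 CPM for mt-Rnr2 (1.25). The kit selects polyadenylated RNA, so these levels need not follow the amount of ribosomal RNA. Of 15 messenger and ribosomal RNAs of the mitochondrial genome, 9 passed the filter. All 9 were higher in thymus than in fresh MLN, and 8 were higher and 0 lower in cultured than in fresh MLN; the ninth, mt-Nd2, had 813 and 795 CPM in cultured MLN and 879 and 806 CPM in fresh MLN, and was called lower with library totals alone. With the TMM factors, 0 of the 9 were lower at an unadjusted p under 0.05 of the edgeR test and 0 with DESeq2.

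Genes for proteins that build and serve the ribosome were more often called lower than higher in culture, where 38.1% of all genes tested were lower and 39.4% higher. Of 27 genes of ribosome assembly and ribosomal RNA modification, 18 (66.7%) were lower in cultured than in fresh MLN and 4 (14.8%) higher, with a median of -0.60. Nsun4, a methyltransferase that joins the subunits' maturation, fell to 7.30 and 7.50 CPM in cultured MLN, against 19.3 and 21.4 CPM in fresh MLN (-1.46 ± 0.11). Mettl17 (19.9 and 19.2 CPM, against 48.0 and 50.4 CPM) and Ngrn (15.2 and 15.0 CPM, against 38.8 and 39.2 CPM) fell by 1.33 and 1.37 on the log2 scale. C1qbp (71.1 and 78.0 CPM, against 52.6 and 46.9 CPM) and Malsu1, an anti-association factor of the large subunit (15.8 and 17.5 CPM, against 11.9 and 10.8 CPM), rose. Of 20 mitochondrial aminoacyl-tRNA synthetases and related genes, which charge the transfer RNAs, 12 (60.0%) were lower in culture and 0 higher, at a median of -0.41; 0 were higher at an unadjusted p under 0.05 and 0 with DESeq2. Ears2, the glutamyl-tRNA synthetase, fell most, to 4.77 and 4.93 CPM in cultured MLN, against 30.1 and 25.1 CPM in fresh MLN (-2.51 ± 0.12).

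Of 14 genes of mitochondrial transcription and RNA stability, 9 (64.3%) were lower in culture and 2 (14.3%) higher. Polrmt, the mitochondrial RNA polymerase, fell to 26.6 and 27.8 CPM in cultured MLN, against 59.0 and 59.6 CPM in fresh MLN (-1.12 ± 0.07), while Slirp, which stabilises mitochondrial messengers, rose to 27.5 and 33.2 CPM, against 18.6 and 19.2 CPM (0.69). Of 12 translation factors, 5 were lower (41.7%, near the 38.1% of all genes) and 1 higher (8.33%); Mtif3, an initiation factor, fell to 17.2 and 16.9 CPM, against 29.0 and 29.6 CPM (-0.78), and the elongation factor gene Tsfm rose to 23.2 and 24.7 CPM, against 17.1 and 17.4 CPM (0.47). The lower calls of these 4 lists numbered at least as many with library totals alone. That setting lowers the log2 fold changes of all genes in culture, so it is no check on lower calls. With RLE factors, assembly genes were 18 lower and 4 higher, and synthetases 12 and 0. Transcription and RNA stability genes were then 9 lower and 2 higher, and translation factors 4 and 3. The 5 ribosomal proteins that carry other symbols split, with Dap3 (50.0 and 52.7 CPM in cultured MLN, 71.5 and 71.6 CPM in fresh MLN) and Ptcd3 (47.9 and 44.7 CPM, 61.2 and 58.7 CPM) lower, and Chchd1, Aurkaip1 and Gadd45gip1 higher by 0.21 to 0.28, calls that library totals alone removed.

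In thymus against fresh MLN, where 25.3% of all genes tested were higher and 22.0% lower, fewer genes of these lists were called. Assembly genes were 3 higher (11.1%) and 6 lower (22.2%) of 27, synthetases 3 (15.0%) and 3 (15.0%) of 20, translation factors 1 (8.33%) and 2 (16.7%) of 12, and transcription and RNA stability genes 0 and 5 (35.7%) of 14, against 33 and 5 of 81 for the ribosomal proteins. Of the transcription and RNA stability genes, 1 was higher at an unadjusted p under 0.05 with edgeR and 0 with DESeq2. The cytosolic ribosomal proteins ran against the mitochondrial ones there, with 4 of 83 higher and 34 lower in thymus at a median of -0.18. In cultured against fresh MLN, 26 of the 83 cytosolic genes were higher and 17 lower at a median of 0.01, but 11 were higher and 39 lower with library totals alone. Many cytosolic ribosomal protein genes have near-identical pseudogenes, so their counts are uncertain. No test was made of the difference between lists.

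**Figure D4:**
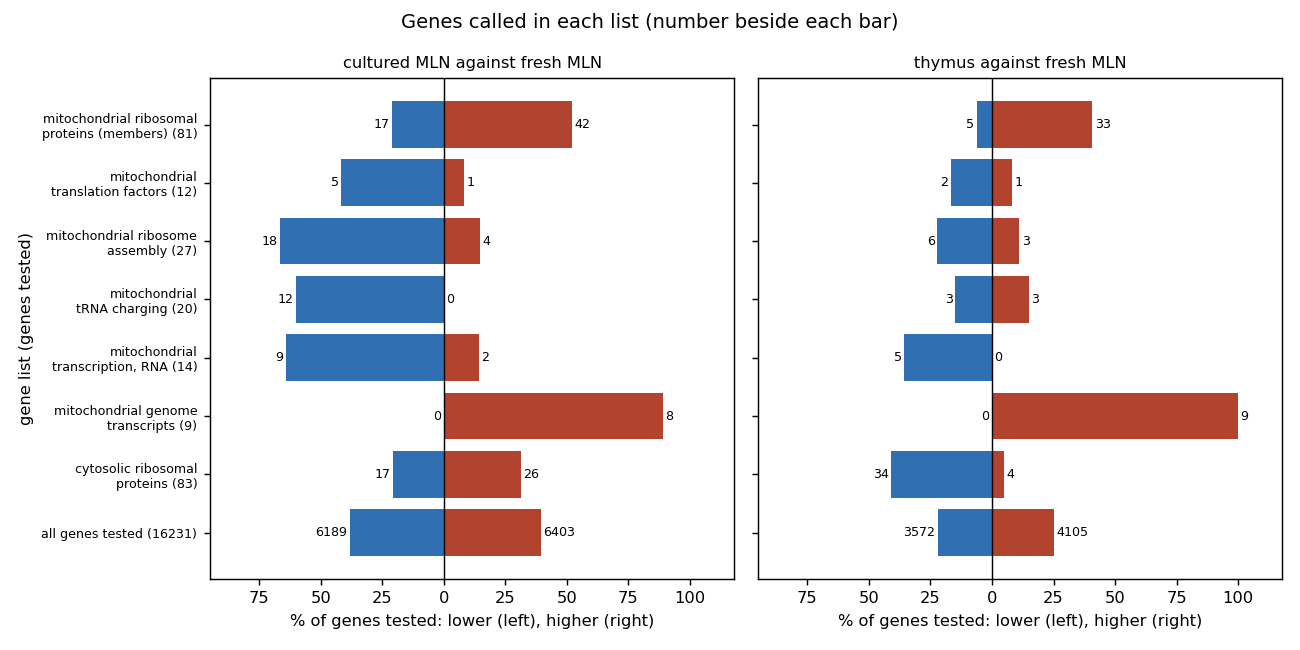
Share of the genes tested in each list that were called lower (blue, to the left) or higher (red, to the right), with the number of genes beside each bar, for cultured against fresh MLN and for thymus against fresh MLN. The ribosomal protein bars reach further to the right than to the left in both panels (42 and 17 genes, 33 and 5 genes), while the bars for assembly, tRNA charging and transcription in culture reach further to the left.

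Many mitochondrial ribosomal protein genes start back to back with another gene. In the GENCODE M21 annotation, 25 of the 77 protein-coding genes (32.5%) had a protein-coding neighbour on the other strand that starts within 500 bases, against 13.2% of the 12988 protein-coding genes tested. The neighbours include proteins of mitochondria, of DNA repair and of cell division, and 24 of the 25 genes had a neighbour that was tested. In cultured against fresh MLN both partners were called for 13 genes, in the same direction for 10 and in opposite directions for 3. That is 54.2% with both called, against 60.6% of 1636 such entries over all protein-coding genes tested. An entry is a gene with a tested neighbour, so over all genes each pair is entered from both sides. Where both were called, 76.9% were in the same direction, against 64.1%. In thymus against fresh MLN both were called for 8 (33.3%, against 21.9%), with 5 in the same direction (62.5%, against 70.4%) and 3 in opposite ones. With so few pairs, nothing particular to the ribosomal protein genes is read from these shares. Mrpl46 and Mrps11 are each other's neighbour and stand for 2 of the 24.

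Mrpl36 and Ndufs6, a subunit of respiratory complex I, moved alike, with Ndufs6 at 20.3 and 24.0 CPM in cultured MLN, against 13.2 and 13.2 CPM in fresh MLN (0.75 ± 0.10; Mrpl36 0.56). Mrps5 and the zinc finger gene Zfp661 both fell, Zfp661 to 3.59 and 2.87 CPM, against 6.14 and 7.06 CPM (-1.03; Mrps5 -0.85). A pair of neighbours, chosen after their values were seen, had larger fold changes than their partners. Ska3, of the kinetochore, was at 14.0 and 16.1 CPM in cultured MLN, against 0.848 and 0.823 CPM in fresh MLN (4.17), beside 0.72 for Mrpl57. Ncapd2, of condensin, was at 169 and 186 CPM, against 40.9 and 38.3 CPM (2.16), beside 0.47 for Mrpl51.

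Opposite movement was seen for Mrps7 (0.81) and Gga3, a clathrin adaptor, which was at 70.7 and 63.4 CPM in cultured MLN, against 116 and 117 CPM in fresh MLN (-0.80 ± 0.08). It was also seen for Mrpl27 (-0.28) and Eme1, a DNA repair nuclease subunit (3.21), and for Mrpl49 (-0.43) and Fau, a cytosolic ribosomal protein gene (0.35). Fau was at 17.8 and 15.5 CPM in cultured MLN, against 13.4 and 12.8 CPM in fresh MLN. As for many cytosolic ribosomal protein genes, its count may be uncertain. Beside Mrpl30, at 48.8 and 51.3 CPM in cultured MLN and 47.7 and 49.9 CPM in fresh MLN (0.04, adjusted p = 0.675), Mitd1 fell to 18.1 and 19.0 CPM, against 75.4 and 87.0 CPM (-2.13 ± 0.10). Mrps12, whose window is printed above, rose by 0.81 while its neighbour Sars2, the mitochondrial seryl-tRNA synthetase, had 12.7 and 16.0 CPM in cultured MLN and 16.0 and 16.7 CPM in fresh MLN (-0.18, adjusted p = 0.151). In thymus both were higher than in fresh MLN, Sars2 at 23.4 and 23.2 CPM (0.51) and Mrps12 by 0.35. Some of these partners share exonic bases, among them Mrps7 and Gga3 and Mrpl36 and Ndufs6, and their reads cannot be told apart without the strand setting.

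**Figure D5:**
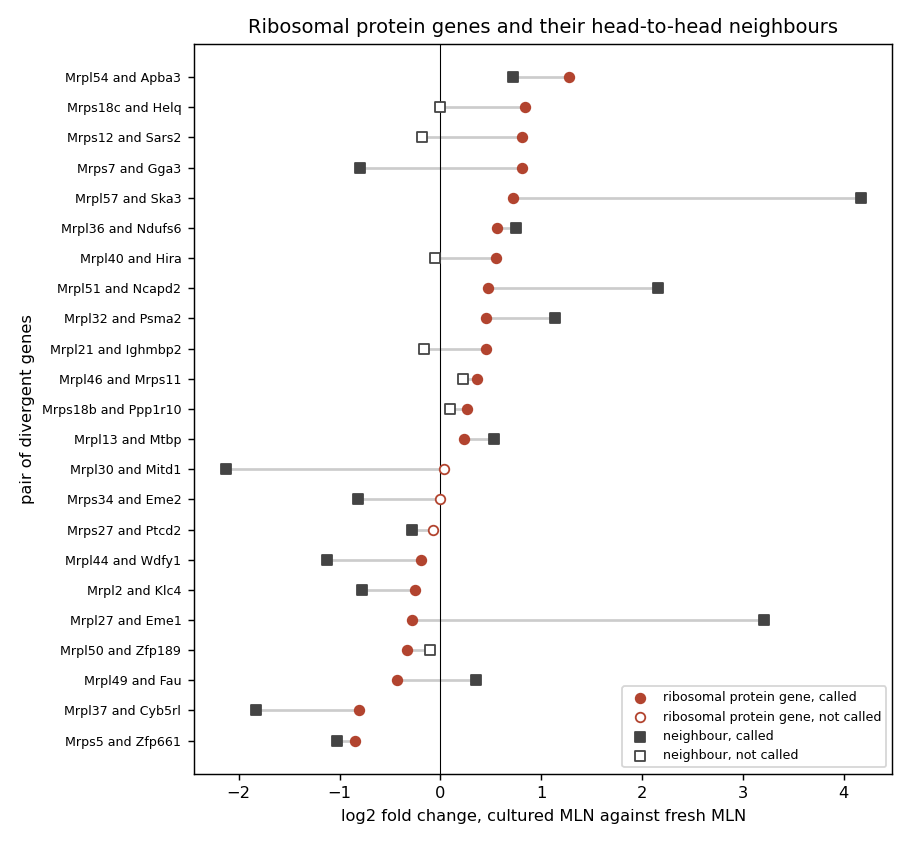
Log2 fold change in cultured against fresh MLN of each ribosomal protein gene (circle) and of its divergent neighbour (square), joined by a line, 1 pair per row; filled marks are called and open marks are not. Most rows have both marks on the same side of 0, Mrps7 and Gga3 lie on opposite sides at 0.81 and -0.80, and the longest lines belong to Mrpl57 with Ska3 and Mrpl27 with Eme1.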

How the data were processed

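Counts of messenger RNA reads per gene were used as the authors deposited them, as raw counts per Ensembl gene and library. HTSeq 0.5.3p9 and builds NCBIM37 and mm9 of the mouse genome are named in the submitters' processing notes, and a stranded mRNA kit was used per the labels; no source used here gives the aligner, the annotation release or the strand setting. Identifiers were matched to GENCODE M21, which gave 32919 of 37991 a symbol and was used only for symbols, transcript lengths, exons and neighbours. Of the 81 genes, 27 share exonic bases with another gene there, 5 of them on the same strand.

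Genes were filtered with filterByExpr, which left 16231, and a model with TMM factors, a mean for each of the 3 groups and no block was fitted to the 6 libraries, with the two-sided quasi-likelihood F test of edgeR 4.0.16 in R 4.3.3. P-values were adjusted by Benjamini-Hochberg over all genes tested. The SE of a log2 fold change is its size divided by the square root of F. Residual degrees of freedom were 3, prior degrees of freedom 9.54 and the common biological coefficient of variation 0.0662. The procedure was also run on simulated data with 200 genes changed between thymus and fresh MLN. Far more genes were called in the real data, so that run is no check on the scaling. DESeq2 1.42.0, other scalings and filters, a replicate block and fits without each library were alternatives.

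The genes and lists were chosen with earlier results of these data known. Genes were named by a rule that took, in each comparison, the 5 highest and 5 lowest called genes of each subunit whose libraries did not overlap and whose higher group had 5 CPM or more, the 5 highest and 5 lowest per kilobase, genes called in opposite directions, a fixed set that includes the stalk and S18 relatives, and up to 3 called genes each way of other lists. Mrpl23-ps1, Mrps36-ps1 and the divergent neighbours were named after their values were seen.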

Additional observations from a re-analysis of the deposited data

How the results depend on the processing

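With RLE factors, without a filter, with only genes that reach 5 CPM in 2 libraries, with the 2 groups compared alone, or with protein-coding members alone, each of the 9 counts and medians over the 81 genes kept its direction and stayed within 1.5 times (counts) or 1 SD of the replicates (medians). Library totals alone moved cultured against fresh MLN to 30 lower and a median of 0.03, and cultured against thymus to 10 higher, 36 lower and a median of -0.20; the log2 fold change of 9 of the 81 genes changed sign against fresh MLN and that of 23 against thymus (2 in thymus against fresh MLN), and 0 of these were called under both scalings. Among the named genes with a call under either scaling, the sign changed for Mrpl30 against fresh MLN (-0.19) and for Mrpl10 (-0.17), Mrpl30 (-0.20), Mrpl36 (-0.05) and Mrps25 (-0.22) against thymus. The TMM factors, 0.8952 and 0.8942 in cultured MLN, 1.074 and 1.066 in thymus and 1.046 and 1.043 in fresh MLN, are what this setting leaves out. DESeq2 called 13 lower in cultured against thymus, against 21 with edgeR; the cause was not tested. Leaving out each library in turn gave, for thymus against fresh MLN, 19 to 32 higher, 2 to 5 lower and medians of 0.18 to 0.24; for cultured against fresh MLN, 38 to 44 higher, 12 to 18 lower and medians of 0.18 to 0.35; and for cultured MLN against thymus, 22 to 26 higher, 12 to 21 lower and medians of 0.02 to 0.12. The lowest count of higher calls in thymus came without fresh MLN replicate 2, and the 12 lower against thymus without cultured MLN replicate 1. For the 54 members that share no exonic base with another gene, an alternative chosen after seeing the data, 21 were higher in thymus than in fresh MLN, and in cultured against fresh MLN 11 were lower with a median of 0.39. Counts out of 54 genes cannot be set directly beside counts out of 81. The median over all 81 in cultured against fresh MLN was 0.26. A replicate block gave 36 higher and 6 lower in thymus against fresh MLN and changed no call to uncalled among named genes; it brought in Mrpl11 (adjusted p = 0.0374) and Mrpl17 (0.0348) in thymus and Mrpl11 (0.0423) and Mrpl58 (0.0408) in culture. Differences between replicates 1 and 2 correlated across genes at 0.0211, 0.115 and 0.0339 for the 3 pairs of groups, so the numbers are not shown to pair the libraries. With 2 libraries a group, small changes such as that of Mrpl11 lie at the limit of what could be called.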

Other observations

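Across the 77 protein-coding genes, the log2 fold change went down with the length of the transcript, with a Spearman rho of -0.25 in cultured against fresh MLN, -0.20 in cultured MLN against thymus and -0.15 in thymus against fresh MLN. Over all 12988 protein-coding genes tested, rho was -0.09, -0.08 and -0.07. These values are across genes, which share libraries and are not independent replicates, and they are given without a test.

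Summed CPM of cytosolic ribosomal protein genes was 10.5 and 9.93 times that of the mitochondrial ones in cultured MLN, 7.88 and 8.75 times in thymus, and 10.5 and 10.4 times in fresh MLN. Both thymus libraries lay below all 4 MLN libraries. The ratio does not depend on scaling, and it includes cytosolic genes with near-identical pseudogenes, whose counts are uncertain.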
